A study of Mus musculus with 14 samples.

Results

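The cells described here are oligodendrocytes of the mouse lateral hypothalamus that carry transcripts of Ptgds, Il33 and Opalin. Barcodes with at least 500 unique molecular identifiers (UMIs, each a captured transcript), at least 300 genes and at most 20% mitochondrially encoded UMIs were kept. A kept barcode was an oligodendrocyte when Mag, Mog, Mobp, Cldn11 and Ermn summed to at least 4 UMIs and the neuronal genes Snap25 and Syt1 to at most 1. It was counted here when Ptgds, Il33 and Opalin summed to at least 2 UMIs and to more than Klk6, S100b, Anln and Serpinb1a together. Of 28410 barcodes, 15378 were kept, 6181 were oligodendrocytes and 5089 met the whole rule, which is 82.3% of oligodendrocytes and 33.1% of kept barcodes. A further 974 oligodendrocytes had more UMIs of Klk6, S100b, Anln and Serpinb1a and are called Klk6 and S100b oligodendrocytes below, and 118 met the definition of neither kind. The rule used the measured values of these 14 genes, so their levels in the selected cells are described and not tested.

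Single-cell libraries were made by Drop-seq, which captures cells with barcoded beads in droplets, from punches of the lateral hypothalamic area of 14 male wildtype C57BL/6J mice. Food was offered ad libitum, either a high fat diet (7 mice, even numbers) or taste-matched chow as the control (7 mice, odd numbers). Age and time on the diet are not stated in the labels. Each library came from 1 mouse, and sequencing was done in 2 pools, where pool 1 held 4 control and 4 high fat diet mice and pool 2 held 3 and 3. All mice shared the strain, genotype and sex, so the diet was the only labelled difference between the groups.

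Oligodendrocytes wrap axons in myelin, a stack of membrane rich in cholesterol and galactolipids, and supply axons with metabolites. Ptgds is lipocalin-type prostaglandin D synthase, which makes prostaglandin D2 and, once secreted, carries lipophilic molecules. Il33 is a nuclear cytokine of the interleukin-1 family that damaged cells release as an alarm signal, and Opalin is a glycoprotein of the oligodendrocyte membrane. In the mouse brain, mature oligodendrocytes are known to range from cells with Klk6 to cells with Ptgds, Il33 and Opalin.

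On GRCm38, with GENCODE M21 annotation, the protein-coding genes that name the cells lie at chr2:25466709-25470046 on the minus strand (Ptgds), chr19:29925114-29960718 on the plus strand (Il33) and chr19:41061710-41077113 on the minus strand (Opalin). The further markers are Bfsp2, a lens filament protein (chr9:103424924-103480420, minus strand), and Cryab, the small heat shock protein alpha-B crystallin (chr9:50751325-50756636, plus strand). Promoter windows from RefSeq on GRCm38.p6, from 250 bases before a gene's start to 50 bases after it, were found for 4 of these 5 genes. They were searched on both strands for ACAAAG and its reverse complement CTTTGT, letters found in sites of the SOX family, which includes the oligodendrocyte factor Sox10. Of 32851 mouse promoter windows of 300 bases, 6147 (18.7%) hold at least 1 match. The windows of Ptgds and Opalin, shown because these genes define the cells and hold a match, are given 5′ to 3′ on the gene's strand with the match in capitals.
Ptgds promoter, chr2:25469700-25469999, minus strand: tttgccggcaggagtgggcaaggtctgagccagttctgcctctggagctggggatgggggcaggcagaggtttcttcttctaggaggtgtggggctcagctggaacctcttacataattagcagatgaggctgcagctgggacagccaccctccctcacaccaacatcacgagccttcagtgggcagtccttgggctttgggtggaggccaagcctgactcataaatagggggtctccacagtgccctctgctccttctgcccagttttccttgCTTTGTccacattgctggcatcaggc
Opalin promoter, chr19:41077064-41077363, minus strand: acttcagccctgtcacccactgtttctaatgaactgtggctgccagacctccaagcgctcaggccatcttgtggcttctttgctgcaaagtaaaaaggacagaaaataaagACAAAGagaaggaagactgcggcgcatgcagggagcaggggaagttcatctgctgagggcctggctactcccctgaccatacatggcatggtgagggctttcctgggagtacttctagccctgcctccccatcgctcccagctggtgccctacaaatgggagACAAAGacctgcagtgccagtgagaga
The Opalin window holds 2 matches and the Ptgds window 1, while the windows of the 2 Il33 starts and of Bfsp2 hold 0. Among genes on the other side of the rule, the window of Klk6 start 1 also holds 1 match. Those of Klk6 start 2 and of S100b hold 0. A match is a description of the letters only, and nothing follows from it for binding.

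The selected cells held a median of 1047 UMIs and 626 genes, and a mouse gave 21 to 635 of them with 39298 to 894696 UMIs in sum. Mouse 14 (21 cells) and mouse 11 (48 cells) gave the fewest. Their median depth per cell ran from 700 UMIs in mouse 11 to 2670.5 in mouse 13 and 2966 in mouse 14, while the other mice reached at most 1435. Scrublet called 33 of the cells (0.648%) doublets, but mice 11, 13 and 14, with fewer than 300 kept barcodes, were not checked. In the selected cells, 1 cell barcode occurred in more than 1 mouse. No pair of libraries agreed within sampling noise, since the lowest chi-square per degree of freedom between any pair was 1.45. Mice 1, 2 and 3, which are 2 control mice and 1 high fat diet mouse of pool 1, stood apart from the other 11 in many genes, so the diet results are also given without them.

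Genes of compact myelin outside the rule were abundant. The rule selected the cells on other myelin genes, so these levels do not test their identity. Mbp, the basic protein that joins the membrane layers, was at 13426 ± 1724 (SD, n = 14 mice) on the counts-per-million scale, which gives UMIs relative to all UMIs of the same cells (CPM). Mal, a proteolipid of myelin, was at 5508 ± 415 CPM. Fth1, the heavy chain of ferritin that stores iron, was at 21906 ± 4838 CPM, above Ptgds at 17985 ± 3538 CPM. Markers of other cells were low. The summed neuron markers (12 genes) ran from 210.3 to 984 CPM against a median of 16601 CPM in neurons. The rule limited Snap25 and Syt1 in the selected cells, and the neurons were picked by these genes, so this gap is described only. The summed astrocyte markers (10 genes) ran from 167 to 538 CPM, the microglia markers (9 genes) from 0 to 180.04 CPM, and the oligodendrocyte precursor markers (6 genes in the tables) from 0 to 102 CPM. The fibroblast and leptomeningeal markers (7 genes) ran from 0 to 67.7 CPM, highest in mouse 14, and 4 of the 7 were seen. The ependymal, tanycyte and choroid plexus markers (8 genes) were at 490 CPM in mouse 1, led by Ttr, and at most 11.3 CPM in the other mice. Of these 8, 6 were seen. The fibroblast genes Col1a1, Col3a1 and Lum and the ependymal genes Ccdc153 and Tmem212 were at 0.

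Ptgds led the signature in every mouse. Its level ran from 11069 CPM in mouse 11 to 23607 in mouse 1, with a median of 18752 over the 14 mice. Mice 1, 2 and 3 had the highest values (23607, 22111 and 20729 CPM), and the next was 20447 CPM in mouse 9. Il33 ran from 1595 to 3257 CPM with a median of 2303, and Opalin from 833 CPM in mouse 9 to 2850 in mouse 11 with a median of 1561. For these genes mice 1 to 3 lay within the range of the others. In the Klk6 and S100b oligodendrocytes of the 12 mice with at least 10 of them, Ptgds had a median of 308.5 CPM, Il33 186 and Opalin 146, so the groups did not overlap, as the rule requires. Cryab, which the rule did not use, ran from 6410 to 11120 CPM in the selected cells and from 3419 to 5555 in the Klk6 and S100b oligodendrocytes. Bfsp2, also outside the rule, ran from 76.3 to 241 CPM against 0 to 68.0.

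**Figure D1:**
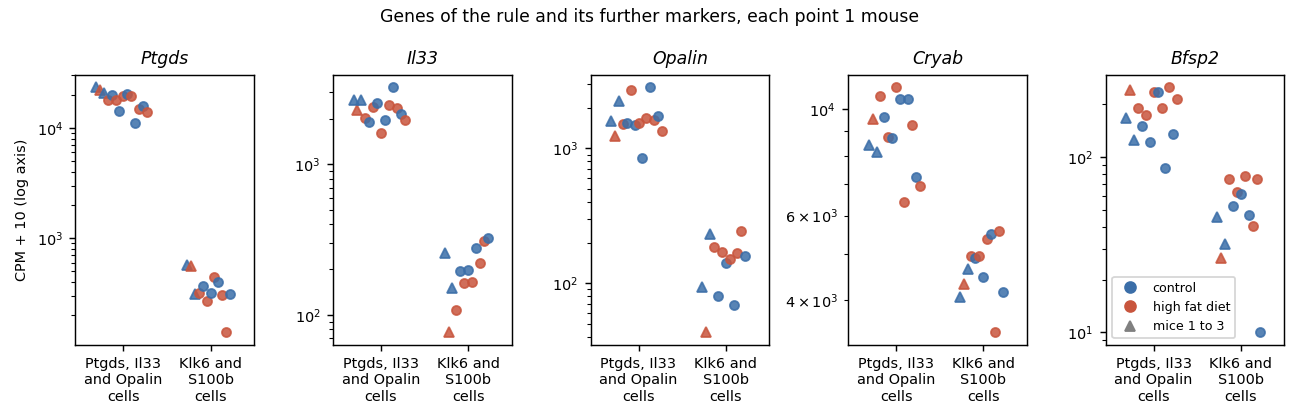
CPM plus 10 (log axes) of Ptgds, Il33, Opalin, Cryab and Bfsp2, with 1 point per mouse (blue control, red high fat diet, triangles mice 1 to 3), in the Ptgds, Il33 and Opalin oligodendrocytes of 14 mice and the Klk6 and S100b oligodendrocytes of 12. Ptgds lies between 11069 and 23607 CPM in the first kind and is at most 556 in the second, and the 5 genes show no overlap between the kinds. The rule selected on Ptgds, Il33 and Opalin, so for them this follows from the selection. Bfsp2 comes close, with at least 76.3 against at most 68.0 CPM. The share of all genes without overlap is not given.

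Most of the cells carried several of the 3 genes at once. A UMI of Ptgds was seen in 99.4% of the cells, of Il33 in 84.4% and of Opalin in 75.1%. After each cell was thinned to 500 UMIs the shares were 97.2, 65.3 and 52.8%. All 3 genes were seen together in 3281 cells (64.5%), Ptgds with Il33 in 989, Ptgds with Opalin in 519 and Ptgds alone in 271. Neurons had at least 4 UMIs of Snap25 and Syt1. Neurons, microglia and astrocytes were each limited to at most 1 UMI over Mag, Mog, Mobp, Cldn11 and Ermn. In neurons, which should lack Opalin, 0.818% of cells had an Opalin UMI at a median depth of 3976.5 UMIs (0.105% after thinning). The limit also removes barcodes with more oligodendrocyte RNA, so this share can understate the background. The part of free RNA was not tested. The share was higher for Ptgds, seen in 15.1% of neurons (2.06% after thinning) and in 8.91% of microglia at a median of 841 UMIs. Il33 was seen in 1.49% of neurons and in 11.4% of astrocytes at a median of 714 UMIs. Of the Klk6 and S100b oligodendrocytes, 29.6% had a UMI of Ptgds, 19.9% of Il33 and 16.9% of Opalin at a median of 1494 UMIs. After thinning these shares were 13.7, 8.83 and 7.29%, far below the selected cells. Those of Ptgds and Opalin stayed above neurons, microglia and astrocytes, while Il33 was close to astrocytes (8.23% after thinning).

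The cut between the kinds fell in a sparse range. The 3 genes summed to at least 10 UMIs in 85.7% of the selected cells, and the 4 opposing genes were at 0 in 40.9%. Only 27 cells entered with a sum of exactly 2, and 14 cells with a sum of 1 that exceeded the opposing genes lay just outside. A margin of 1 UMI over the opposing genes admitted 67 cells, while 60 cells tied and 42 fell short by 1. Among the opposing genes, Anln, a scaffold of the cell cortex, was seen in 44.3% of the selected cells and Serpinb1a, a protease inhibitor, in 29.8%, whereas S100b, a calcium-binding protein, was seen in 6.72% and Klk6, a secreted serine protease, in 2.34%. S100b and Klk6 were seen in fewer of the cells than Anln and Serpinb1a. The rule used all 4 genes to set the kinds apart, so these shares depend on the selection and are described only.

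Ptgds was the most abundant of the 3 genes in 4813 cells (94.6%). Il33 led in 117 cells (2.30%), Opalin in 54 (1.06%), and 105 (2.06%) had a tie for the lead. The lead was chosen on these counts, so it is described only. In the 10 mice with at least 5 cells led by Il33, these cells had 1736 CPM of Ptgds against 20020 in the cells led by Ptgds of the same mice. Apod, a lipid-carrying lipocalin, was at 9186 against 6077 CPM and higher in 10 of 10 mice. Ermn, a cytoskeletal protein of myelin that the rule also used, was at 7928 against 6461 CPM and also higher in 10 of 10. Anln was at 1160 against 659 CPM (10 of 10 mice), while Cryab was at 7612 against 9585 CPM (lower in 8 of 10) and Mt1, a metallothionein, at 394 against 879 CPM (lower in 9 of 10). Klk6 itself was at 70.3 against 37.8 CPM on 10 UMIs in all, too few to rank.

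The next comparison asked how the cells differ from Klk6 and S100b oligodendrocytes of the same mouse in genes that the rule did not use. Outside the rule, the largest gains were in genes of the cell surface and matrix, led by Adamts1, a secreted protease of the extracellular matrix, and the largest losses were in Nkx2-9 and Anxa5. Summed counts were compared within each of the 12 mice with at least 10 cells of both kinds, as the log2 ratio of CPM plus 10. No test was made, because both kinds were selected from the same cells. Of 3561 genes with at least 50 CPM in either kind, 178 were higher in all 12 mice (5% of genes) and 184 were lower in all 12 (5.17%). The selected cells were shallower than the Klk6 and S100b oligodendrocytes in 12 of 12 mice, with a median ratio of median UMIs of 0.693. The part of depth in these counts was not tested beyond thinning. With every cell thinned to 500 UMIs before the rule was applied, 78 genes were higher and 65 lower in all mice.

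Adamts1 was at 119 ± 34.8 CPM (SD, n = 12) in the selected cells and 3.17 ± 5.28 CPM in the Klk6 and S100b oligodendrocytes, a median log2 ratio of 3.54. The lowest selected mouse had 48.1 CPM and the highest Klk6 and S100b mouse 14.1 CPM, so the kinds did not overlap. How many of all genes showed no overlap is not given. Hebp1, a haem-binding protein, had a median log2 ratio of 2.68 and Gfra1, a co-receptor for the growth factor GDNF, of 2.45. Cd9, a tetraspanin of the myelin membrane, was far more abundant, at 904 ± 120.4 against 191 ± 72.3 CPM (log2 ratio 2.27). Mcam, an adhesion protein, was at 109 ± 23.4 against 17.0 ± 11.3 CPM. Aebp1, a matrix-associated protein (2.19), Fads1, a fatty acid desaturase (2.15), Cd63, a tetraspanin of late endosomes (1.72), and Prickle1, a planar polarity protein (1.65), were also higher. Apoe, the main lipoprotein of the brain, was at 3117 ± 1108 against 955 ± 389 CPM (log2 ratio 1.79), and Mt1 at 772 ± 291 against 238 ± 135 CPM (1.69). Wfdc18, Bfsp2 and Foxj1, a regulator of motile cilia, had ratios of 2.05, 1.82 and 1.81. Foxj1 was at 62.0 ± 12.6 CPM against 16.8 ± 13.6 CPM, and each gene named here was higher in 12 of 12 mice.

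Nkx2-9, a homeodomain factor, was almost absent from the selected cells, at 2.28 ± 2.37 CPM against 131 ± 34.2 CPM (log2 ratio −3.51). Anxa5, a calcium-dependent phospholipid-binding protein, was at 49.6 ± 18.4 against 504 ± 126 CPM (−3.22). Hopx, an atypical homeodomain protein (−3.00), Enpp6, a choline phosphodiesterase known from newly formed oligodendrocytes (−2.77), and Cdkn1c, an inhibitor of cell division (−2.74), followed. Faah, an enzyme that breaks down the endocannabinoid anandamide, was at 7.63 ± 4.48 against 99.8 ± 28.2 CPM (−2.63). Ldhb, a lactate dehydrogenase subunit, was at 69.0 ± 16.0 against 384 ± 86.8 CPM (−2.20), and Mgst3, a microsomal glutathione transferase, had a ratio of −2.32. Plin3, a coat protein of lipid droplets, was at 209 ± 42.2 against 934 ± 119 CPM (−2.14). Aven (−2.61), Serpind1 (−2.55), Clgn (−2.29), Tspan9 (−2.25), Rab37 (−2.21) and Rapgef5 (−2.15) were the other named genes, and all 15 were lower in 12 of 12 mice.

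**Figure D2:**
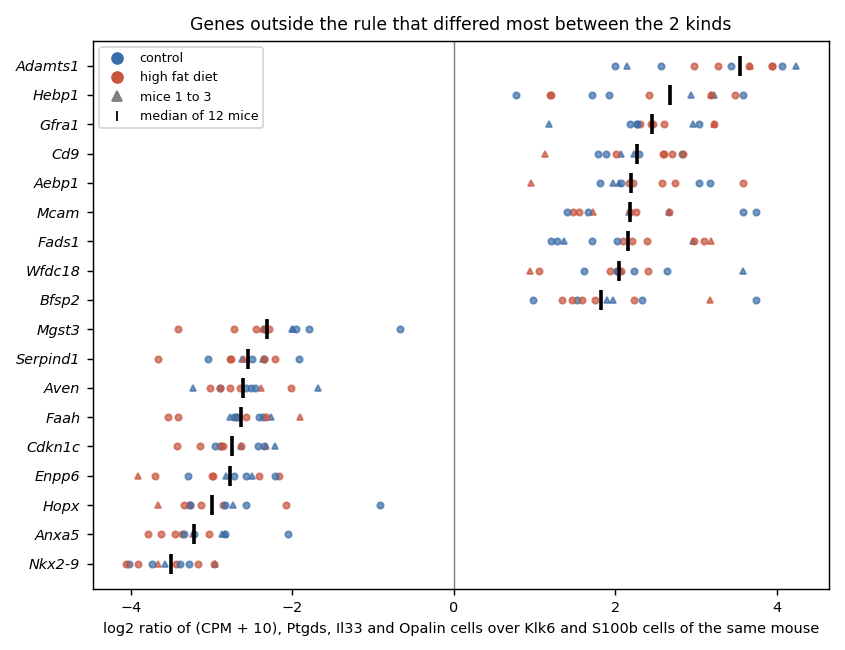
Log2 ratio of CPM plus 10 in Ptgds, Il33 and Opalin oligodendrocytes over Klk6 and S100b oligodendrocytes of the same mouse, for the 9 genes outside the rule with the largest median ratio in each direction (points are 12 mice, blue control and red high fat diet, triangles mice 1 to 3, black bars the medians). The medians run from −3.51 for Nkx2-9 to 3.54 for Adamts1, and every point of a gene lies on the same side of 0.

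Lists of genes by function showed which parts of the oligodendrocyte programme were shared. Of 23 myelin genes at this level, 7 were higher in all 12 mice, 6 were lower and 10 were neither, with a median log2 ratio of 0.00 against 0.00 over all genes. Mal had a ratio of 0.91 and Cnp, an enzyme of the myelin cytoplasm, of 0.19, while Mbp (−0.04) went in both directions among the mice. The enzymes of galactolipid synthesis Ugt8a (−0.49) and Fa2h (−0.41) and the gap junction protein Gjb1 (−0.88) were lower. All 3 genes of cholesterol synthesis that moved, Sqle (−1.62 to −0.42 over the 12 mice), Sc5d (median −0.59) and Hmgcs1 (−0.36), were lower, out of 11 at this level with a median of −0.36. Apod was lower as well (−1.35), and so were Fth1 (−0.33) and the iron carrier Trf (−0.65), 2 of the 4 iron genes at this level, whereas Hebp1 (2.68) was higher.

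Higher in the selected cells were 3 of 11 chaperone genes, Cryab, Hsp90aa1 (0.77) and Hsp90ab1 (0.51), and 0 of the 11 were lower. Of 9 oligodendrocyte transcription factors, Olig2 (0.90), Olig1 (0.42) and Zfp536 were higher in all 12 mice and 0 were lower. Mitochondrially encoded genes were higher in 6 of 7 cases, with a median ratio of 0.42, among them mt-Co1 (0.48) and mt-Cytb (0.40). These transcripts also move with cell quality, whose part in this difference was not tested. Of the genes known to accompany Ptgds in mature oligodendrocytes, 5 of 6 were higher, with Jph4, a junctional membrane protein, at 1.63, Grm3, a metabotropic glutamate receptor, at 0.64 and Car2, a carbonic anhydrase, at 0.18, while Apod was lower. Of the 6 known to accompany Klk6, Anxa5, Hopx and Pmp22 were lower, but Cd9 and Glul, glutamine synthetase (0.21), were higher.

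Mice 1, 2 and 3 were set beside the others in the selected cells, because they stood apart in earlier results of these data. A gene was counted when all 3 lay on 1 side of the other 11, and no test was made. Of 3551 genes with at least 50 CPM, 61 were higher in all 3 mice than in any other (1.72%) and 284 were lower (8%). The gaps on the lower side were the wider ones. Scand1 had 19.7, 5.22 and 8.30 CPM in mice 1, 2 and 3 and 97.2 to 133.3 CPM in the others. Olig1, a transcription factor of the lineage, had 453, 295 and 348 CPM against 1148 to 2214, and Lamp1, a lysosomal membrane protein, 791, 587 and 543 against 1817 to 3054. H2afj, a histone variant, ran from 63.6 to 76.4 CPM against 247 to 435, and Uqcrfs1, the iron-sulphur subunit of respiratory complex III, from 37.3 to 46.8 against 136 to 246. Pcsk1n, Gde1, Pithd1, Emc10 and Tmem66 are the other named genes, with gaps of 1.14 to 1.28 on the log2(CPM + 10) scale. The highest of mice 1 to 3 thus stayed below the lowest of the rest in each of these 10 genes.

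On the higher side the gaps were at most 0.29 on the same scale. Ptn, the growth factor pleiotrophin, had 1784, 2116 and 1569 CPM against 763 to 1320, and Cyp51, an enzyme of cholesterol synthesis, 195, 128 and 151 against 50.8 to 105. Fnbp1, Kidins220, Acadsb, Scrn3, Dstn, Serinc1, Nars and Syt11 had gaps of 0.19 to 0.29. Of the 284 lower genes, 139 of the 269 at that level were also lower in mice 1 to 3 in Klk6 and S100b oligodendrocytes, and 160 of 205 in neurons. Of the 61 higher genes, 7 of 59 also stood apart in the Klk6 and S100b oligodendrocytes and 28 of 52 in neurons. The 10 lower genes with the widest gaps stood apart in 10 of 10 and 9 of 9 cases, and the 10 higher ones in 2 of 9 and 8 of 9. Of all genes, 3306 and 2587 were at that level in those cells. How many of them stood apart there is not given, so these counts describe the overlap only. The lower genes were richer in G and C, with a median of 51.1% over transcripts of 267 genes, than the higher genes (45.9%) or all genes at this level (48.0%). Base composition therefore moved with the set, and its part in the difference was not tested. Without mice 11 and 14, which gave the fewest cells, 120 genes were higher.

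**Figure D3:**
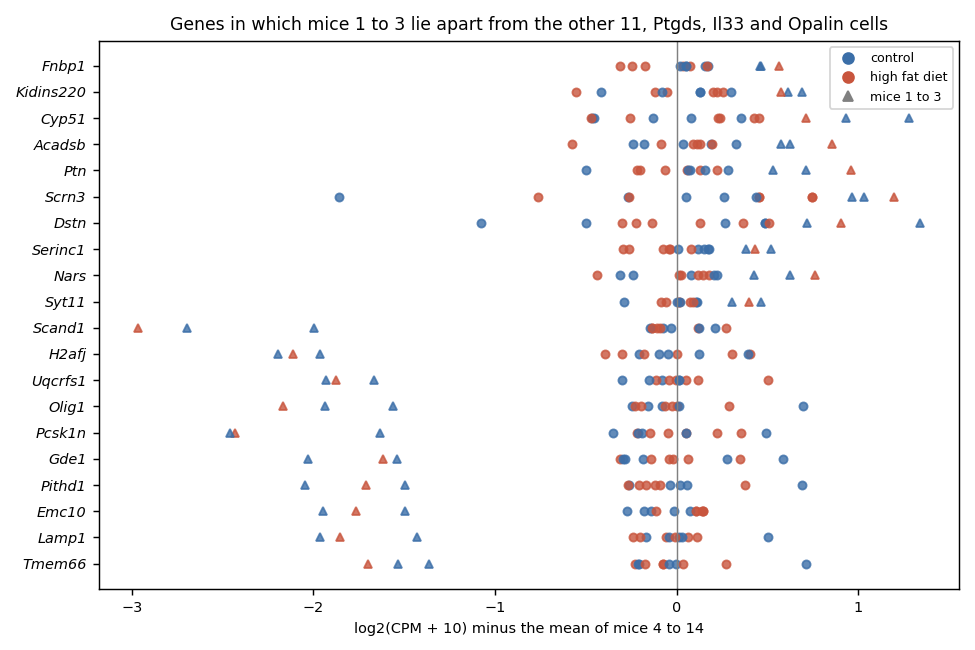
Log2(CPM + 10) in Ptgds, Il33 and Opalin oligodendrocytes minus the mean of mice 4 to 14, for the 10 genes with the widest gap in each direction (points are mice, blue control and red high fat diet, triangles mice 1 to 3). The triangles of the lower genes lie to the left of every circle by 1.14 to 1.85, and those of the higher genes to the right by 0.19 to 0.29.

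The series compared mice on the high fat diet with mice on the control chow. The diets did not differ detectably in how many oligodendrocytes were of this kind. The share of oligodendrocytes was 76.4, 82.0, 86.9, 82.6, 84.3, 92.3 and 77.2% in control mice 1, 3, 5, 7, 9, 11 and 13. It was 87.9, 84.97, 82.0, 76.5, 82.8, 82.2 and 87.5% in high fat diet mice 2, 4, 6, 8, 10, 12 and 14. The groups overlapped over nearly their whole range. The means were 83.1 ± 5.51% and 83.4 ± 3.90% (SD, n = 7 each), a difference of 0.296 percentage points (two-sided exact permutation p = 0.896 over 3432 arrangements, adjusted p = 0.896 over 3 denominators). Of kept barcodes the cells made up 34.7 ± 6.05% and 33.4 ± 5.66% (exact permutation p = 0.679, adjusted p = 0.896). Of the oligodendrocytes assigned to either kind they made up 84.6 ± 5.46% and 85.8 ± 5.19% (exact permutation p = 0.674, adjusted p = 0.896).

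Within pool 1 the share of oligodendrocytes was 80.6% on control chow and 83.5% on high fat diet (exact permutation p = 0.371). Within pool 2 it was 86.4 and 83.3% (exact permutation p = 0.6, where the smallest p that 3 mice against 3 allow is 0.1), so the pools differed in sign. Without mice 1 to 3 the difference was −2.02 points (exact permutation p = 0.487). The share of kept barcodes was 34.7 and 33.0% within pool 1 (exact permutation p = 0.743) and 34.6 and 33.9% within pool 2 (exact permutation p = 0.8). That of assigned oligodendrocytes was 82.1 and 86.9% within pool 1 (exact permutation p = 0.257) and 88.0 and 84.4% within pool 2 (exact permutation p = 0.3). The exact 95% interval of a mouse's own share ran from 81.5 to 97.9% in mouse 11 and from 67.6 to 97.3% in mouse 14, and covers counting error only. Median UMIs per cell did not differ detectably either (1284 ± 646 against 1319 ± 772, exact permutation p = 0.997 on log10 values).

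**Figure D4:**
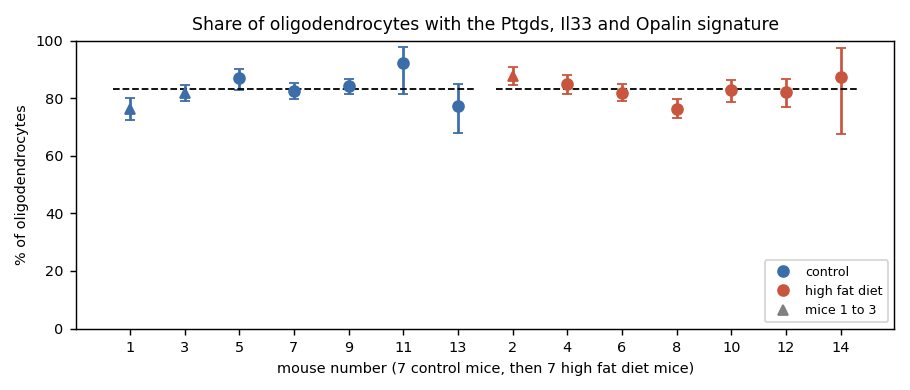
Share of oligodendrocytes (percent, axis from 0) that were Ptgds, Il33 and Opalin oligodendrocytes in each mouse, blue for control and red for high fat diet, with exact 95% binomial intervals, triangles for mice 1 to 3 and dashed lines for the group means of 83.1 and 83.4%. The mice lie between 76.4 and 92.3% and the diets overlap.

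Gene levels in the cells did not pass a test between the diets. Counts were summed per mouse and tested with edgeR's quasi-likelihood method with sequencing pool as a covariate, and the 14 genes of the rule were kept out. Of 5618 genes tested, 0 passed the threshold of 0.05 on the adjusted p (Benjamini-Hochberg; 0% higher and 0% lower), while 128 were under 0.05 before adjustment. Limma voom (with quality weights) and DESeq2 also called 0, and had 278 and 129 genes under 0.05 before adjustment. Counts for 5618 genes were also simulated, with a spread that followed the average trend over gene level. They held no pool effect, no shift of mice 1 to 3 and no extra spread of single genes. Among genes with a mean of at least 50 CPM, the same fit recovered 41.8% changed 1.5-fold, 92.5% changed 2-fold and 100% changed 3-fold. Recovery in the measured counts, where single genes can vary more, was not tested. Ptgds itself, described without a test, was at 17985 ± 4377 CPM in control mice and 17984 ± 2822 CPM in high fat diet mice. Il33 was at 2443 ± 482 and 2149 ± 315 CPM, and Opalin at 1747 ± 634 and 1656 ± 485 CPM.

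The smallest p belonged to Pcp4, a calmodulin-binding protein that is abundant in some neurons. It had 14.8, 19.4, 31.6, 21.5, 19.0, 25.4 and 23.9 CPM in control mice 1, 3, 5, 7, 9, 11 and 13. It had 60.0, 37.6, 79.1, 62.8, 20.2, 37.7 and 67.7 CPM in high fat diet mice 2, 4, 6, 8, 10, 12 and 14. All high fat diet mice but mouse 10 lay above every control mouse. The values of mice 11 and 14 rest on few counts, since their selected cells held 39298 and 59095 UMIs over all genes. Without mice 1, 2 and 3 the log2 fold change of Pcp4 was 0.91 (edgeR adjusted p = 1.0). The log2 fold change was 1.19 (SE 0.25, edgeR adjusted p = 0.29), and the group means of log2(CPM + 10) differed by 1.28 among pool 1 mice and 0.36 among pool 2 mice. Beside it, the neuron markers in the same cells summed to 210.3 to 705.2 CPM in control mice and 322 to 984 CPM in high fat diet mice, and their part in the value was not tested.

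The other genes with the smallest p on the higher side were Fos, an immediate early transcription factor (log2 fold change 1.10, SE 0.34), Cactin (0.94), Syn2, a synaptic vesicle protein (1.05), and BC029722 (0.59). Fos was at 14.7 ± 13.2 CPM in control mice and 44.1 ± 24.9 CPM in high fat diet mice, and mice of both groups lay between 15.1 and 34.5 CPM. On the lower side were Plekhf1, an endosomal and lysosomal protein (−1.13, SE 0.29), Kpnb1, the nuclear import receptor importin beta (−0.62), Azin1, a regulator of polyamine synthesis (−0.77), B3galt5, a galactosyltransferase (−0.60), and Eps15, an endocytic adaptor (−0.42). All 9 had an edgeR adjusted p of 1.0. Plekhf1 was at 156 CPM in control mouse 9 and 25.4 to 86.3 CPM in the other control mice, against 26.4 to 44.4 CPM on high fat diet, and its log2 fold change was −0.68 without mouse 9 and −1.33 without mice 1, 2 and 3. Of the markers outside the rule, Bfsp2 was at 136 ± 46.4 and 203 ± 29.3 CPM (log2 fold change 0.47, SE 0.18, edgeR adjusted p = 1.0, above the control mean in 7 of 7 high fat diet mice). Cryab was at 9007 ± 1237 and 8942 ± 1764 CPM (0.00, SE 0.13).

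None of the gene lists had a member that passed. The median log2 fold change over all 5618 genes was 0.01, and 51.8% of genes lay above 0. Myelin genes had 9 of 23 above 0 and a median of −0.02, with Mbp at 0.08 (SE 0.11). Cholesterol synthesis and uptake genes had 6 of 17 above 0 (median −0.07), with Hmgcs1, which makes the precursor of mevalonate, at −0.28 (SE 0.16), and lipid handling genes had 12 of 24 above 0 (median 0.00), with the desaturase Scd2 at 0.07 (SE 0.15) and Apoe at 0.14 (SE 0.31). Cytosolic ribosomal protein genes had 9 of 49 above 0 (median −0.10) and mitochondrially encoded genes 0 of 8 (median −0.20, with mt-Cytb at −0.16, SE 0.13). Genes reported in disease-associated oligodendrocytes had 7 of 7 above 0 (median 0.18), with Cd63 at 0.22 (SE 0.13), and immediate early genes 5 of 6 (median 0.23). Insulin and leptin signalling genes had 4 of 6 above 0 (median 0.13), with the docking protein Irs2 at 0.07 (SE 0.17), and chaperones 5 of 12 (median −0.01). Iron genes had 2 of 5 above 0 (median −0.03), glycolysis genes 6 of 10 (median 0.05) and oligodendrocyte transcription factors 6 of 10 (median 0.12, with Sox10 at 0.26, SE 0.21). Prostaglandin and alarmin genes outside the rule had 1 of 5 above 0 (median −0.15), with the cytokine gene Il18 at −0.07 (SE 0.16). No list was tested as a whole. Without mice 1, 2 and 3, 0 of 6087 genes passed in edgeR (204 had an unadjusted p under 0.05), and several lists moved. Cholesterol genes turned to 10 of 17 above 0 (median 0.12), and mitochondrially encoded genes had 2 of 8 above 0 (median −0.06). Immediate early genes had 4 of 7 above 0 (median 0.03), oligodendrocyte transcription factors 6 of 11 (median 0.01), chaperones 2 of 13 (median −0.13) and iron genes 3 of 6 (median 0.01). Ribosomal protein genes had 18 of 50 above 0 (median −0.07), prostaglandin and alarmin genes 0 of 5 (median −0.11), and disease-associated genes 6 of 7 (median 0.19). The remaining lists given here were myelin genes (11 of 23 above 0, median −0.00), lipid handling genes (13 of 24, median 0.01), glycolysis genes (5 of 10, median 0.02) and insulin and leptin signalling genes (4 of 6, median 0.15).

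The list farthest from 0 was that of glucocorticoid-responsive genes, with 0 of 9 above 0 and a median of −0.54, and it rested on 1 mouse. Glucocorticoids are the stress hormones of the adrenal gland, and Sgk1, a kinase, is among the best known genes they induce. Sgk1 had 941.4, 87.1, 83.4, 403, 3038, 102 and 148 CPM in control mice 1, 3, 5, 7, 9, 11 and 13, and 87.5 to 284 CPM in the 7 high fat diet mice. Mouse 9 alone exceeded the median of the other 13 mice 17.6-fold. Without mouse 9 the median of the list was −0.07, with 2 of 9 genes above 0, and without mice 1, 2 and 3 it was −0.78, with 0 of 9 above 0. Mouse 9 was looked at because of these values, so what follows is a description with no test.

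In mouse 9, which gave 635 of the cells and the most UMIs, 10 of the 15 listed genes were higher than in every other mouse. Among them Sult1a1 was near the floor, at 4.47 CPM against at most 2.33. How many of all genes were highest in mouse 9 is not given. This count and those for other cells below therefore describe the list only. Nfkbia, an inhibitor of NF-kappa-B, was at 677 CPM against 50.9 to 239 in the others, and Zbtb16, a transcription factor, at 168 against 10.4 to 56.5 CPM. Cdkn1a, an inhibitor of cell division, was at 178 CPM against 0 to 9.31, and Fkbp5, a co-chaperone of the glucocorticoid receptor, at 40.2 against 0 to 4.93 CPM. Klf9, at 357 CPM, was exceeded by mouse 11 (407 CPM), and Tsc22d3, at 200.1 CPM, by mouse 14 (237 CPM). Plin4, Polr3e, Arid5b, Arrdc2 and Fam107a, outside the list, were also over 1 log2 unit above every other mouse in mouse 9. For this count a gene was kept when it reached at least 50 CPM in any mouse, which left 5552 genes. Genes over 1 log2 unit above every other mouse numbered 9 in mouse 9. They numbered 0 or 1 in the other mice, except for mouse 11 (177) and mouse 14 (111), which had few cells. Cdkn1a, Plin4 (at most 47.8 CPM in the other mice) and Fam107a (at most 22.1 CPM) reached 50 CPM in mouse 9 alone. They were thus kept through the mouse in which they are called high, so the count is described only.

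The same mouse stood out in the Klk6 and S100b oligodendrocytes, where 11 of the 15 genes were highest in mouse 9. There Sgk1 was at 2435 CPM against 54.4 to 429.6 in 11 other mice, and Nfkbia at 314 against 26.0 to 133.1 CPM. In neurons Sgk1 was at 17.5 CPM in mouse 9 against 9.99 to 18.7 in the other 12 mice with at least 10 neurons, and Nfkbia at 33.1 against 23.4 to 51.1 CPM. The sum of the 15 genes in mouse 9 was 6599 CPM in the selected cells, against 1093 to 2460 in the other mice. It was 4488 CPM in the Klk6 and S100b oligodendrocytes, against 613 to 1164. In neurons mouse 9 also had the highest sum, 455 CPM against 277 to 438, and 5 of the 15 genes were highest there. The difference between oligodendrocytes and neurons was not tested.

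**Figure D5:**
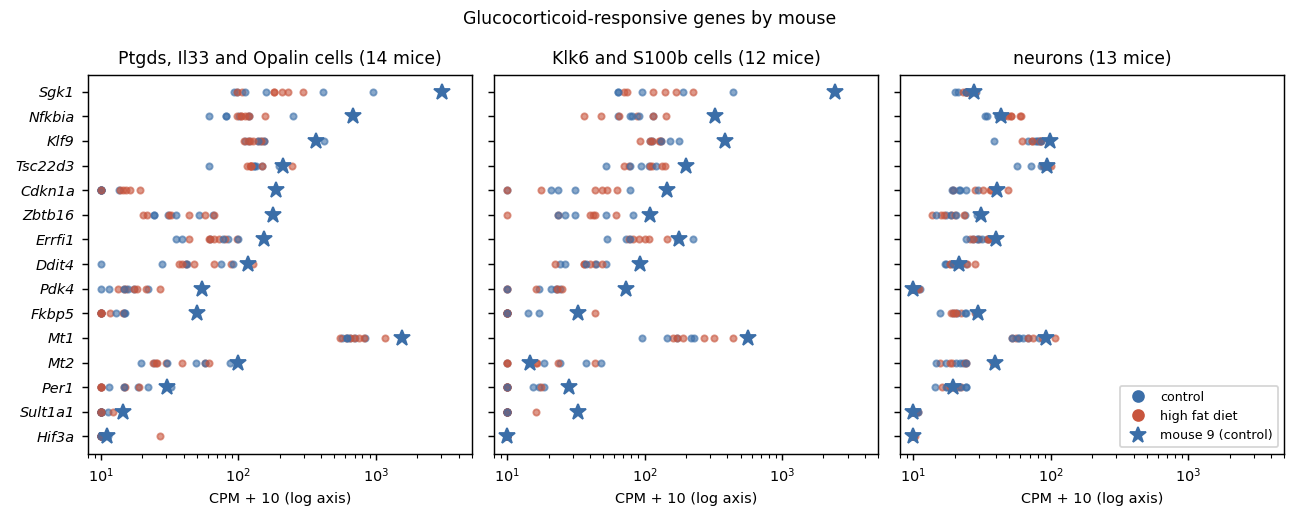
CPM plus 10 (log axes) of 15 glucocorticoid-responsive genes in Ptgds, Il33 and Opalin oligodendrocytes (14 mice), Klk6 and S100b oligodendrocytes (12 mice) and neurons (13 mice), with 1 point per mouse, blue for control and red for high fat diet, and control mouse 9 as a star. The star is the highest point for 10 of 15 genes in the first panel, 11 in the second and 5 in the third. The share of all genes that were highest in mouse 9 is not given.

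Whether the diet acted differently on these cells than on Klk6 and S100b oligodendrocytes was tested as an interaction in edgeR, with the mouse as a block, in 12 mice (6 of each diet). Of 4307 genes, 0 passed (0% in either direction) and 181 had an unadjusted p under 0.05. Counts for 4307 genes were simulated in the same way, without differences between mice or kinds other than in the changed genes. On these counts the fit recovered 26.9% of genes changed 1.5-fold, 58.2% of genes changed 2-fold and 98.5% of those changed 3-fold. Anxa5 had the smallest p, with an interaction of −0.86 on the log2 scale (SE 0.21, edgeR adjusted p = 0.28). It was at 56.7 ± 22.7 and 42.6 ± 10.7 CPM in the selected cells and at 456 ± 110 and 552 ± 132 CPM in the Klk6 and S100b oligodendrocytes, on control chow and high fat diet. Jun, an immediate early transcription factor, had an interaction of 0.82 (SE 0.21, edgeR adjusted p = 0.51), with 225 ± 61.6 and 273 ± 43.1 CPM in the selected cells and 307 ± 187 and 190 ± 80.3 CPM in the other kind. Without control mouse 5, high fat diet mouse 6 or control mouse 9, each left out in turn, Jun was the 1 gene that passed, with edgeR adjusted p-values of 0.025, 0.024 and 0.0042, and over all alternatives they ran from 0.0042 to 0.998. Cd63 had an interaction of 0.72 (SE 0.21), Sar1b, a GTPase of vesicle transport, of 0.86, Tmod2 of 0.50 and Erlec1 of 0.89, while Sytl2 (−0.86), Aldoa (−0.44), Cd47 (−0.39) and Exosc4 (−1.17) were on the other side, with edgeR adjusted p-values of 0.51 to 0.99.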

How the data were processed

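The authors deposited 1 table of raw UMI counts (genes by cell barcodes) per mouse, which are whole numbers and not normalized. The tools named in the submitters' processing notes are STAR 2.4.2a, Picard 2.2.4 and bcl2fastq 2.18.0.12, and the build is mm10 (GRCm38). Which tool counted UMIs, with what annotation and strand setting, and how barcodes were chosen is not stated there, so counts of close paralogs and overlapping genes are less certain. Members and gene lists were chosen with earlier results of these data known. Counts were summed per mouse over cells (at least 10) and are shown as CPM of all UMIs. Scrublet (scanpy 1.11.5) marked doublets in mice with at least 300 kept barcodes at an expected rate of 5%. Mice 11, 13 and 14 had fewer and were not checked. Doublets were removed only as an alternative. Thinning drew 500 UMIs per cell. Diet genes were tested with edgeR 4.0.16 (quasi-likelihood, robust, TMM, filterByExpr) in R 4.3.3, beside DESeq2 1.42.0 and limma 3.58.1, and single values with exact permutation tests in scipy 1.17.1. The fits were tested on simulated data with 200 changed genes. Diet names 5 genes per direction by p and the 3 most abundant members per list (some of which are printed), the kinds 15 per direction and mice 1 to 3 10 per direction. Each mouse gave 1 library. Some genes that this rule names are not reported here.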

Additional observations from a re-analysis of the deposited data

Results flagged for a closer look

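In 40 groups of 7 mice (5 measures per mouse, the 3 signature genes, the markers Bfsp2 and Cryab and the 10 diet genes with the smallest p), 5 values lay far from the rest of their diet group, where chance flags about 1 in 20 groups. Median depth in mouse 13 was 2670.5 UMIs, with 1307 in the next control mouse. In mouse 14 it was 2966 UMIs, with 1435 in the next high fat diet mouse. The median share of mitochondrially encoded UMIs in mouse 10 was 3.34%, with 2.17% in the next high fat diet mouse. Opalin was at 2694 CPM in mouse 6, with 1665 in the next high fat diet mouse. Azin1 was at 84.6 CPM in mouse 14, which had 21 cells, with 49.0 in the next high fat diet mouse.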

How the results depend on the processing

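The shares by diet were close to 0 and changed sign easily, with no alternative passing a test. The difference in share of kept barcodes (high fat diet minus control, in points, −1.31) was 1.28 without mice 1, 2 and 3 and −2.89 to 0.476 with 1 mouse left out. That of oligodendrocytes (0.296) was −1.02 with cells thinned to 500 UMIs, −0.00376 with at least 3 UMIs required, −2.02 without mice 1, 2 and 3, −3.09 within pool 2, −0.387 in mice with at least 50 oligodendrocytes and −0.829 to 1.83 with 1 mouse left out. That of assigned oligodendrocytes (1.17) was −0.917 without mice 1, 2 and 3, −3.65 within pool 2, −0.436 in mice with at least 50 oligodendrocytes and −0.436 to 2.75 with 1 mouse left out. Log10 UMIs per cell (−0.0002) were at 0.000232 without doublets, 0.0874 within pool 2 and −0.0669 to 0.0589 with 1 mouse left out. Without thinning, the mean share of cells per mouse with a UMI was 99.6% for Ptgds, 84.7% for Il33 and 77.7% for Opalin, against 97.3, 64.8 and 54.4% thinned. Genes higher or lower than in Klk6 and S100b oligodendrocytes in every mouse fell from 178 and 184 to 78 and 65 with thinned cells. Genes with mice 1 to 3 above the others numbered 61, 120 without mice 11 and 14 and 32 thinned, and those below numbered 284 and 148 thinned (both chosen after seeing the data). With any gene of at least 1 count in 2 mice tested, 2 of 13837 passed by diet, Plekhf1 (adjusted p = 0.022) and Fkbp5 (adjusted p = 0.023), both highest in mouse 9, where the other alternatives put Plekhf1 at up to 1.0. The other 11 alternatives and all 14 fits with 1 mouse left out gave 0. The interaction gave 0 to 1 genes with 1 mouse left out. A gene that did not pass and lay within 1 SE of 0 was given no direction. The median of all genes moved by under 0.1 log2 under each scaling. No paired analysis was possible because the replicate numbers follow the listing order and pair no mice.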

Other observations

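Transcripts of hypothalamic peptides were counted in these oligodendrocytes in every mouse. Hcrt, the precursor of orexin, ran from 33.8 CPM in mouse 14 to 1603 CPM in mouse 11, with a median of 287 CPM. Pmch, the precursor of melanin-concentrating hormone, ran from 16.9 to 840 CPM in the same 2 mice. The 16 peptide genes together were at 2748 CPM in mouse 11 and at 84.6 to 934 CPM in the others, against a median of 10650 CPM in neurons, 975 CPM in microglia and 724 CPM in astrocytes. The median in these oligodendrocytes, 621 CPM in control mice and 512 CPM in high fat diet mice, lay below those of microglia and astrocytes. Of the 16 genes, Agrp alone was at 0. Ttr, the thyroid hormone carrier of the choroid plexus, was at 481 CPM in mouse 1 and at 0 to 8.63 CPM in the other 13 mice.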
